A study of Mus musculus with 60 samples.

Results

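A group of 10 immediate early genes was followed in the hippocampus of R6/1 mice and their wild-type (WT) controls: Fos, Fosb, Junb, Egr1, Egr2, Egr3, Egr4, Arc, Npas4 and Nr4a1. They were chosen by name, and all 10 were found among the 24508 gene symbols of the expression table. The R6/1 line models Huntington's disease: under the human promoter it expresses exon 1 of the human huntingtin gene, with an expanded CAG repeat, as a transgene beside the intact mouse gene. Both groups were 30 weeks old, on a mixed CBA and C57BL/6 background, and untreated as far as the labels say. RNA-seq was made from frozen hippocampal tissue of 9 WT and 9 R6/1 animals, described as independent biological replicates. Lamin B1 ChIP-seq domains, 1 list per genotype, were used for gene positions only.

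Immediate early genes are transcribed within minutes of strong synaptic input, without new protein synthesis, when calcium entry and kinase signalling reach factors such as CREB, SRF and MEF2 that already sit at their promoters. In hippocampal neurons their messenger RNA is short-lived, so its level follows recent activity of the animal. Most encode transcription factors that switch on later genes, whereas Arc acts at the synapse.

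The reads on genes, recovered from the expression values, numbered between 12299434 and 16457022 per WT library and between 13260311 and 16736544 per R6/1 library. Values are RPKM, reads per kilobase of gene scaled for depth, so levels can be compared between genes. Xist, the RNA of the inactive X chromosome, was at or below 0.0365 RPKM and Ddx3y, a gene of the Y chromosome, at or above 11.6 RPKM in all 18 libraries, so no library differed from the others in sex. The level of Ttr, the leading transcript of the choroid plexus, ran from 19.0 to 1035 RPKM over the WT libraries and from 33.4 to 1696 RPKM over the R6/1 libraries. When the log2 Ttr level was entered as a covariate, chosen after seeing the data, 6 of the 10 genes were called lower, with the call of Egr1 lost (limma adjusted p 0.0565).

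The promoters of these genes are shown for what they share in sequence. RefSeq windows on build GRCm38.p6, from 250 bases before to 50 bases after a transcription start, were present for 7 of the 10 genes, in 11 windows (5 of them of Egr2), and those of Arc, Egr1 and Egr3 were not used here. The core of the cAMP response element (CRE), TGACG, to which CREB binds, was found on either strand in windows of all 7 genes, and in 9 of the 11 windows, of which 3 Egr2 windows overlap and hold the same cores. It lay in 20.8% of all 32851 windows of the same length. The 11 windows were richer in G and C than the median window, at 56.0% to 72.3% against 52.7%. The share among windows of like composition was not computed. A CArG box, the binding sequence of SRF, was found in 4 windows, all of Egr2, against 1.63% of all windows. These are 2 distinct sites, since the 3 overlapping windows hold the same one. The TATA box letters TATAAA were found for Fos and Junb (13.6% of all windows), and the EGR-type site GCGGGGGCG for Fosb and Nr4a1 (2.91%). The TATA letters began at position -33 from the start in Fos, but at position 1 in Junb, past the 250 bases before the start. No window of these genes held the full CRE TGACGTCA (1.79% of all windows), the AP-1 site TGACTCA (5.20%), the NR4A site AAAGGTCA (1.51%) or the EGR site GCGTGGGCG (0.612%), which says only that these letters are not in the windows; the full CRE contains the core on both strands. The 250 bases before the start are printed for Fos and Fosb and for Egr2 and Egr4, pairs of 1 family whose log2 difference from each other shifted between genotypes, and for Npas4, which has cores of both strands side by side. Capitals mark matches to the motifs. The stretches are chr12:85473640-85473889 (plus strand) for Fos, chr7:19310046-19310295 (minus strand) for Fosb, chr10:67537619-67537868 (plus strand) for Egr2, chr6:85513590-85513839 (minus strand) for Egr4 and chr19:4989972-4990221 (minus strand) for Npas4.
Fos: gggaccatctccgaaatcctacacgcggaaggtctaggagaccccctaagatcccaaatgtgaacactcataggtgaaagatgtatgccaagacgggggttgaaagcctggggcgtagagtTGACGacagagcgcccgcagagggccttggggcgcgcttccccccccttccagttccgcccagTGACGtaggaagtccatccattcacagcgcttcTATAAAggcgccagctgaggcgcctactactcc
Fosb: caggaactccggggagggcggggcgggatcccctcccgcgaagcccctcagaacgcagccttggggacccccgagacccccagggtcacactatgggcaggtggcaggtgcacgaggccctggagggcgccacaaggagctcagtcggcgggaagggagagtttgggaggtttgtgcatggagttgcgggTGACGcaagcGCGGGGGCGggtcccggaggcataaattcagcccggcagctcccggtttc
Egr2: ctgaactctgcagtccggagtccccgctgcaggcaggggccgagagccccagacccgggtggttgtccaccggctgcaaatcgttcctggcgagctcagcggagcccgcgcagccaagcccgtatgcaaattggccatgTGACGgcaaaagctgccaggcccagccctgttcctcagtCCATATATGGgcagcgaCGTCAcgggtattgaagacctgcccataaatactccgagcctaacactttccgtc
Egr4: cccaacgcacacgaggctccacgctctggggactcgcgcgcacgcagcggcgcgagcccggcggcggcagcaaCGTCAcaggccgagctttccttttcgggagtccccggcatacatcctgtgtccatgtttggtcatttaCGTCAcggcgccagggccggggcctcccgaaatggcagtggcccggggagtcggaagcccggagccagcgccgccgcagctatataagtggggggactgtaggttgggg
Npas4: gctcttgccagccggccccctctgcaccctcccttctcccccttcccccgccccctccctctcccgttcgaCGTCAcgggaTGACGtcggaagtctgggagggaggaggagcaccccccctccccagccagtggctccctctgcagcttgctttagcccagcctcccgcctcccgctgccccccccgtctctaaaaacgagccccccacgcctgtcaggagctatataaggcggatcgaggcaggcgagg
Fos holds 2 CRE cores and the TATA letters, Egr2 a CArG box between 2 CRE cores, and Npas4 2 CRE cores, while Egr4 holds 2 CRE cores and Fosb 1 beside its EGR-type site. Not all Egr2 windows are like the printed one. The window starting at 67535249 held none of the motifs, and that starting at 67537316 held a CArG box without a core.

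None of the 10 genes had its transcription start in a lamin B1 domain of either list (build NCBIM37, the same as mm9, throughout). The closest was Fosb (chromosome 7, 19888070 to 19895394, minus strand), at 0.618 Mb from a WT domain and 0.433 Mb from an R6/1 domain. Egr2 (chromosome 10, 66998223 to 67004936, plus strand) lay 0.731 Mb from a WT domain and 0.768 Mb from an R6/1 domain. The other 8 genes lay at least 2.17 Mb from any domain. Npas4 (chromosome 19, 4984355 to 4989971, minus strand) was 7.92 Mb from the nearest WT domain and 2.71 Mb from the nearest R6/1 domain, since the R6/1 list holds a domain from 7696001 to 8621000 that starts nearer to the gene. With 1 list per genotype these distances have no replicate spread.

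Of the 10 genes, 7 fell in R6/1 and 0 rose, at a limma adjusted p under 0.05 on log2(RPKM + 0.5) over the 14446 genes that reached a mean of 0.5 RPKM, a filter that all 10 passed. The background is high in this comparison: 23.5% of all tested genes were called lower and 24.8% higher, 48.3% in all. The median log2 fold change was -0.63 over the 10 genes and 0.00 over all tested genes. Arc, Npas4 and Egr2 fell most on this scale, Junb, Nr4a1, Egr3 and Egr1 fell by less, and Fos, Fosb and Egr4 did not pass the test. The authors' deposited table called 7 of the 10 lower and 0 higher, against 20.4% of its genes called lower and 20.0% higher. Scaling by the libraries' own read totals gave 2526 lower and 5110 higher genes over the whole table in place of 3394 and 3586, and 6 of the 10 were then lower, without Egr1. The RNA is from whole tissue, in which fewer cells of a type and less RNA per cell cannot be told apart.

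Markers of the hippocampal cell types moved with genotype as well. All 8 dentate granule neuron markers fell, and their summed level was 81.8 to 125.9 RPKM in WT and 46.5 to 57.8 RPKM in R6/1. Of 6 markers each, 5 fell for CA1 pyramidal, CA3 pyramidal, inhibitory and all neurons, and 1 CA1 and 1 general neuronal marker rose. The summed level of the general neuronal markers was 1794 to 2154 RPKM in WT and 1478 to 1605 RPKM in R6/1, with no overlap. Snap25 led that sum, at a mean of 899 RPKM over all libraries. Among single tested genes, all R6/1 libraries lay below all WT libraries for 6.38%. All 5 astrocyte, 4 of 5 oligodendrocyte and 3 of 5 microglia markers fell, and 0 of 5 endothelial and 0 of 5 choroid plexus markers were called. The background for all these counts is 23.5% of tested genes called lower and 24.8% called higher. No marker was at 0 in all libraries. The part of these shifts in the differences of the 10 genes was not tested.

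**Figure D1:**
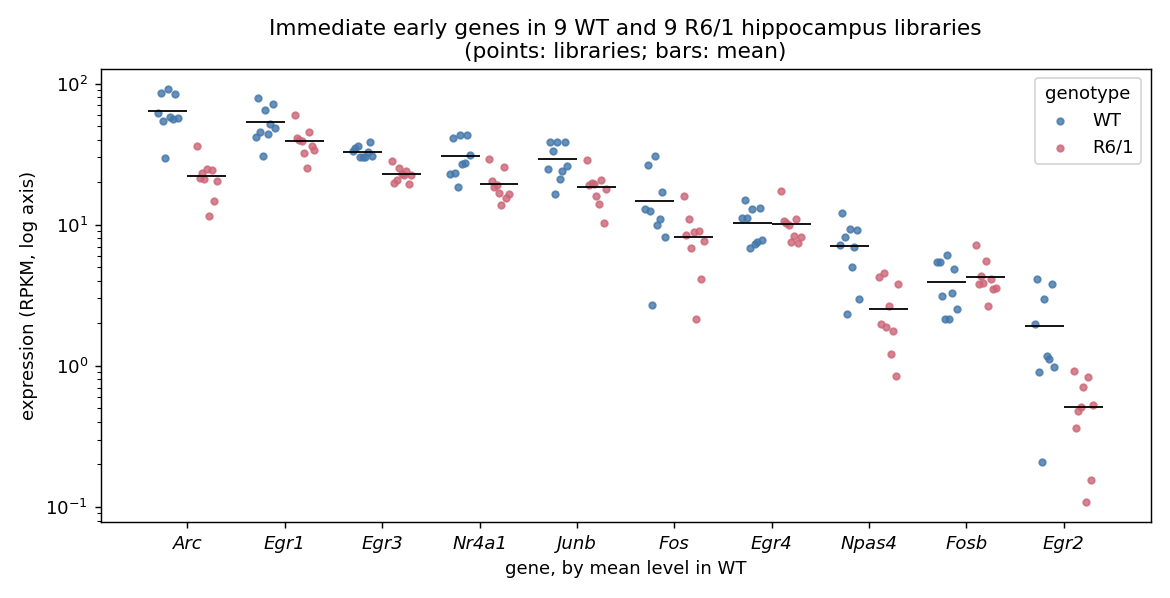
Expression in RPKM on a log axis for the 10 genes in each of 9 WT (blue) and 9 R6/1 (red) libraries, with the mean as a bar. The Egr3 points of the genotypes do not overlap, Arc overlaps only through 1 library of each genotype, and Fosb and Egr4 overlap over most of their range.

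Fos, Fosb and Junb encode subunits of AP-1, a dimer of a Fos protein and a Jun protein. Fos (chromosome 12, 86814840 to 86818223, plus strand) ranged from 2.70 to 30.8 RPKM in WT with a median of 12.5, and from 2.16 to 16.0 RPKM in R6/1 with a median of 8.43. The genotypes overlapped widely: 3 WT libraries lay above every R6/1 library, and 1 R6/1 library below every WT library. The WT mean was 14.6 ± 8.93 RPKM and the R6/1 mean 8.22 ± 3.94 RPKM (SD, n = 9 each). The log2 fold change of -0.70 (SE 0.37, 95% interval -1.46 to 0.06) did not pass the test (limma adjusted p 0.122), with a spread between libraries at the 98.9 percentile of all tested genes. In the authors' deposited table Fos had an adjusted p of 0.0808. Without WT replicate 4, the lowest WT library at 2.70 RPKM, the difference was -0.95 and passed (limma adjusted p 0.0166). Of the 18 fits that left out a library, only this 1 changed the call. Over these fits the difference ran from -0.95 to -0.50.

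Fosb, whose product pairs with Jun proteins like Fos does, did not pass the test. It ranged from 2.14 to 6.13 RPKM in WT with a median of 3.28, and from 2.67 to 7.23 RPKM in R6/1 with a median of 3.87. All R6/1 libraries lay above the lowest WT library, and 1 of them lay below the WT median. The means were 3.91 ± 1.57 and 4.29 ± 1.34 RPKM (SD, n = 9 each), and the log2 fold change was 0.16 (SE 0.19, 95% interval -0.25 to 0.56, limma adjusted p 0.525). Junb (chromosome 8, 87500811 to 87502617, minus strand), a Jun subunit, ranged from 16.6 to 38.9 RPKM in WT with a median of 26.0, and from 10.3 to 28.6 RPKM in R6/1 with a median of 19.2. It fell, though the ranges overlapped, with 4 WT libraries above every R6/1 library and 3 R6/1 libraries below every WT library. The mean went from 29.2 ± 8.42 to 18.4 ± 5.06 RPKM (SD, n = 9 each), or -0.64 on the log2 scale (SE 0.18; limma adjusted p 0.00494).

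The 4 EGR genes encode zinc finger factors that bind GC-rich sites. Egr3 fell without overlap, Egr1 and Egr2 fell with overlap, and Egr4 did not pass the test. Egr3 (chromosome 14, 70477252 to 70479964, plus strand), which takes part in long-term memory and in muscle spindle formation, ranged from 30.0 to 38.8 RPKM in WT with a median of 32.6, and from 19.6 to 28.5 RPKM in R6/1 with a median of 22.6. All 9 R6/1 libraries lay below all 9 WT libraries, which was so for 6.38% of all tested genes, while in 5.5% of them all R6/1 libraries lay above all WT libraries. Its mean fell from 32.9 ± 3.10 to 22.8 ± 2.79 RPKM (SD, n = 9 each), or -0.52 on the log2 scale (SE 0.07; limma adjusted p 2.36e-06).

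Egr1 (chromosome 18, 35020861 to 35024638, plus strand), a marker of neuronal activity with a high basal level in forebrain, ranged from 30.6 to 79.0 RPKM in WT with a median of 48.1, and from 25.2 to 59.9 RPKM in R6/1 with a median of 39.2. Only 1 R6/1 library lay below the lowest WT library. The mean fell from 53.1 ± 15.6 to 39.2 ± 9.68 RPKM (SD, n = 9 each), a log2 fold change of -0.41 (SE 0.16) at a limma adjusted p of 0.0411, close to the threshold. The direction held in all 32 alternatives and the call in 16 of them. It was lost without WT replicate 2, 5, 7 or 8 and without R6/1 replicate 3, 4, 5, 6, 8 or 9 (10 of 18 libraries, with a limma adjusted p from 0.0504 to 0.0838), and was 0.0456 in the authors' deposited table. The annotation places Gm17507 on the opposite strand over Egr1, and strand use in the counting of reads is not given in the sources used here.

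Egr2, known for its part in myelination by Schwann cells and in hindbrain patterning, was the least abundant of the 10. It ranged from 0.210 to 4.16 RPKM in WT with a median of 1.17, and from 0.109 to 0.923 RPKM in R6/1 with a median of 0.514. These values rest on 10 to 185 reads per WT library and 5 to 45 per R6/1 library, so counting error adds to the spread. WT replicates 2, 5 and 8, at 4.16, 2.97 and 3.78 RPKM, stood highest. The log2 fold change was -1.08 (SE 0.29, limma adjusted p 0.00479). It depends on the pseudocount, since this scale understates the change of low genes: it was -1.51 with a pseudocount of 0.1, -0.82 with a pseudocount of 1, and -1.70 with voom on the recovered reads.

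Egr4 (chromosome 6, 85461125 to 85463583, minus strand), known for its part in male fertility, ranged from 6.87 to 14.9 RPKM in WT with a median of 11.2, and from 7.46 to 17.4 RPKM in R6/1 with a median of 10.0. No R6/1 library lay below the lowest WT library. The means were 10.3 ± 3.01 and 10.1 ± 3.05 RPKM (SD, n = 9 each), and the log2 fold change was -0.02 (SE 0.16, 95% interval -0.36 to 0.32, limma adjusted p 0.937). The interval does not show that the levels were equal, and the sign of the difference changed over the alternatives, from -0.12 to 0.05.

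Npas4 and Nr4a1 encode transcription factors of other families. Npas4, a basic helix-loop-helix factor induced by calcium entry in neurons and known for setting inhibitory synapses, ranged from 2.31 to 12.1 RPKM in WT with a median of 7.20, and from 0.846 to 4.53 RPKM in R6/1 with a median of 1.99. All 9 R6/1 libraries lay below the WT median, and 7 WT libraries lay above every R6/1 library, while WT replicates 4 and 9 fell within the R6/1 range at 2.31 and 2.99 RPKM. The mean fell from 7.04 ± 3.16 to 2.55 ± 1.34 RPKM (SD, n = 9 each), a ratio of 0.362, or -1.30 on the log2 scale (SE 0.29; limma adjusted p 0.00105).

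Nr4a1 (chromosome 15, 101097277 to 101105223, plus strand), an orphan nuclear receptor, ranged from 18.5 to 43.4 RPKM in WT with a median of 27.6, and from 13.9 to 29.3 RPKM in R6/1 with a median of 18.4. In all, 4 WT libraries lay above every R6/1 library and 5 R6/1 libraries below every WT library. The mean fell from 30.9 ± 9.47 to 19.5 ± 5.03 RPKM (SD, n = 9 each), or -0.63 on the log2 scale (SE 0.17; limma adjusted p 0.00365).

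Arc (chromosome 15, 74499513 to 74503000, minus strand) encodes a postsynaptic protein that drives removal of AMPA receptors from synapses, and its RNA travels into dendrites. It showed the largest decrease of the 10 on this scale. In WT replicates 1 to 9 it was at 62.0, 86.1, 54.1, 29.9, 91.3, 58.3, 55.8, 85.1 and 56.8 RPKM. In R6/1 replicates 1 to 9 it was at 36.3, 21.6, 23.2, 21.0, 25.0, 11.5, 24.5, 14.8 and 20.4 RPKM. The genotypes were apart except for WT replicate 4, which lay below R6/1 replicate 1. The mean fell from 64.4 ± 19.7 to 22.0 ± 6.96 RPKM (SD, n = 9 each), a ratio of 0.342, or -1.52 on the log2 scale (SE 0.20; limma adjusted p 3.46e-06). Over all alternatives the difference ran from -1.65 to -1.28, the latter in the authors' deposited table.

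**Figure D2:**
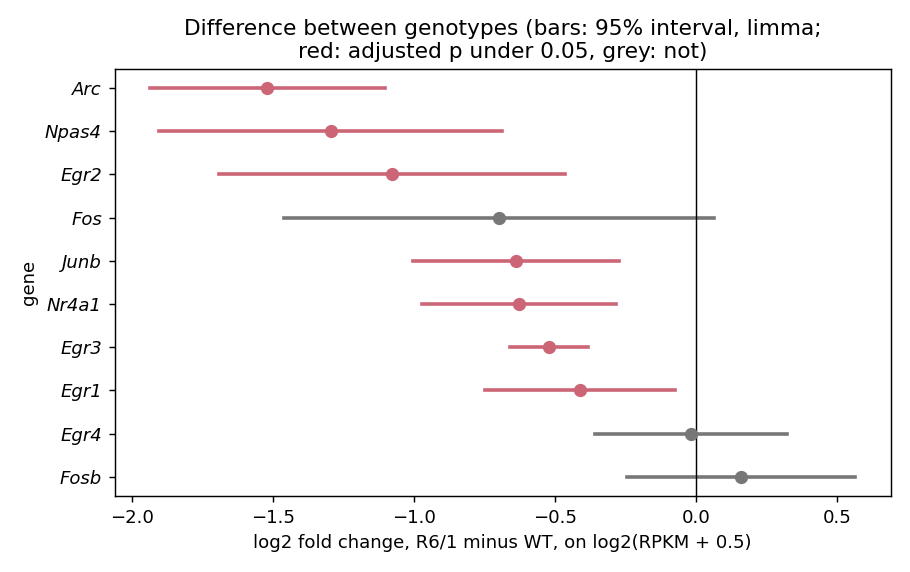
Log2 fold change of each gene, R6/1 minus WT, on the log2(RPKM + 0.5) scale, with the 95% interval from limma; red genes have an adjusted p under 0.05. Arc lies lowest at -1.52, the interval of Fos reaches 0.06, and those of Egr4 and Fosb span 0.

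The order of the levels differed between genotypes. In WT the means ran from Arc (64.4 RPKM) through Egr1, Egr3, Nr4a1, Junb, Fos, Egr4, Npas4 and Fosb to Egr2 (1.92 RPKM). The means of Arc and Egr1 were closer there than the larger SD of the 2 genes. So were those of Egr3 and Nr4a1, Nr4a1 and Junb, Fos and Egr4, and Npas4 and Fosb. This yardstick leaves out that both genes were measured in the same libraries. Within WT libraries, Arc stood above Egr1 and Fos above Egr4 in 8 of 9, Nr4a1 above Junb in 7 and Egr3 above Nr4a1 in 5. In R6/1 Egr1 was highest at 39.2 RPKM, beyond the spread of the next gene. Arc followed Egr3, with a mean closer to those of Egr3 and Nr4a1 than the larger SD. Egr3 stood above Arc in 4 of the 9 R6/1 libraries, and Arc above Nr4a1 in 6. Npas4 stood above Fosb in all 9 WT libraries, whereas Fosb stood above Npas4 in 7 of the 9 R6/1 libraries.

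The spread between animals of 1 genotype was wide for 9 of the 10 genes. Their residual SD on the log2 scale was above that of 95% of all tested genes, from 0.38 for Egr1 and 0.39 for Egr4 to 0.87 for Fos, against a median of 0.14 over all tested genes. Egr3 was the exception, with a residual SD of 0.15, at the 57.3 percentile. The coefficient of variation of Fos was 61.1% in WT and 48.0% in R6/1, and that of Egr3 was 9.43% and 12.2%. On the log2 scale the SD was larger in WT than in R6/1 for 9 of the 10 genes, all but Egr3, a difference in spread that was not tested.

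The same libraries were high or low across the genes. WT replicates 2, 5 and 8 were among the 3 highest WT libraries for 10, 9 and 9 of the 10 genes. WT replicate 4 was among the 3 lowest WT libraries for all 10, and the lowest for 8. In R6/1, replicate 1 was the highest for 9 of the 10 genes, replicate 7 was among the 3 highest for 8, and replicates 6 and 8 were among the 3 lowest for 8 and 9. The Ttr level was 106, 894 and 19.0 RPKM in WT replicates 2, 5 and 8 and 112 RPKM in WT replicate 4. It was 375 and 33.4 RPKM in R6/1 replicates 1 and 7, and 282 and 491 RPKM in R6/1 replicates 6 and 8. A relation of Ttr to the order of the libraries within a genotype was not tested.

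**Figure D3:**
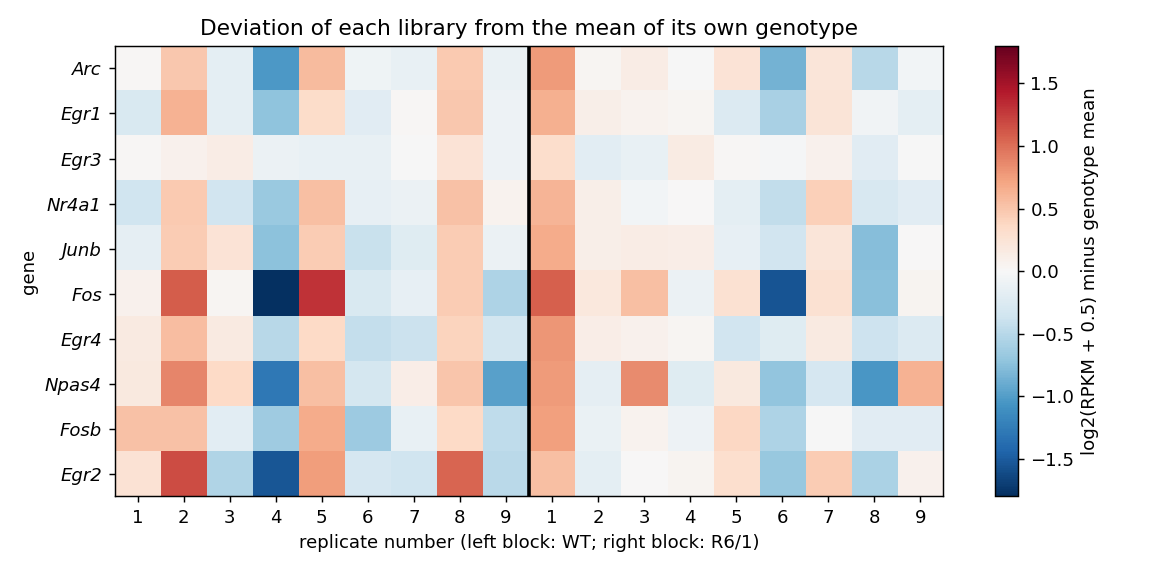
Deviation of each library from the mean of its own genotype on the log2(RPKM + 0.5) scale, for the 10 genes (rows) and the 18 libraries (columns, WT left and R6/1 right of the line). Columns are mostly of 1 colour, red for WT replicates 2, 5 and 8 and R6/1 replicate 1, and blue for WT replicate 4 and R6/1 replicates 6 and 8, while the row of Egr3 is pale.

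To put this as a number on the same values, pairs of the genes were compared within each genotype, over 9 libraries, with exact permutation tests adjusted over the 90 relations (45 pairs in each genotype). Pearson's r was above 0 for all 45 pairs in both genotypes, with a median of 0.83 in WT and 0.73 in R6/1. It passed the threshold for 32 pairs in WT and 23 in R6/1, and Spearman's rho for 16 and 13. The share of related pairs among other tested genes was not computed, so these counts have no background. By Pearson's r, Fos and Arc were most closely related in both. By Spearman's rho it was Fos and Npas4 in WT and Fosb and Arc in R6/1, both at 0.967 (exact permutation p 0.000165, adjusted 0.00744). For Fos and Arc in WT, r was 0.962 (exact permutation p 0.000358, adjusted 0.00468) and rho 0.850 (exact permutation p 0.00607, adjusted 0.0273). In R6/1, r was 0.975 (exact permutation p 0.000179, adjusted 0.00403) and rho 0.917 (exact permutation p 0.00131, adjusted 0.0148). Leaving out the 2 libraries farthest from the median of Fos gave an r of 0.860 in WT and 0.917 in R6/1. Egr3 passed with none of the other 9 genes in either genotype, at an r from 0.29 to 0.62 in WT and from 0.39 to 0.70 in R6/1. Much of the pattern rests on 2 libraries: without WT replicate 4 the count in WT was 16 pairs, and without R6/1 replicate 1 the count in R6/1 was 8. With the 2 libraries farthest from the median of the first gene left out of each pair, the median r was 0.74 in WT and 0.57 in R6/1, with 44 and 39 of 45 pairs above 0. Whether the relations differ between genotypes was not tested.

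Because the genes moved together between animals but not alike between genotypes, the difference of log2 values of 2 genes was compared between genotypes for all 45 pairs, by a test chosen once values were known (two-sided exact permutation over 48620 ways to choose 9 of 18 libraries, adjusted over the 45 pairs). The difference changed for 28 pairs, and the genotypes did not overlap for 6 pairs, 5 of which involve Arc. The share of changed pairs among all tested genes was not computed, so these counts have no background. Of single tested genes, 48.3% were called in either direction. Each shift equals the difference between the log2 fold changes of its 2 genes, so its size follows from changes already given. The test adds the spread of the difference between libraries. Egr4 stood below Arc by 2.57 ± 0.29 on the log2 scale in WT and by 1.07 ± 0.32 in R6/1 (SD, n = 9 each), a shift of 1.50 (exact permutation p 4.11e-05, the smallest this design allows; adjusted 0.000309). Fosb shifted against Arc by 1.68, Egr1 by 1.11 and Junb by 0.88, each without overlap and at the same p. Nr4a1 also separated from Arc, which stood above it by 1.04 ± 0.21 in WT and by 0.14 ± 0.25 in R6/1. The sixth pair was Junb and Egr4, with a shift of -0.62. Counting pairs that overlap, the difference from Arc changed for 8 of the 9 other genes, all but Npas4, as did that from Fosb for 8, from Egr4 and from Npas4 for 7 each, from Egr1 for 6, from Nr4a1 for 5, from Junb, Egr2 and Egr3 for 4 each and from Fos for 3. For Fos the difference from Arc moved by 0.82 (exact permutation p 0.000946, adjusted 0.00284). For Egr2 the shift against Arc, 0.44 (exact permutation p 0.0148, adjusted 0.0259), rests on few reads of Egr2, whose own difference depends on the pseudocount.

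Within the AP-1 genes, Fos stood above Fosb by 1.61 ± 0.60 in WT and by 0.75 ± 0.49 in R6/1 (SD, n = 9 each), a shift of -0.86 (exact permutation p 0.00490, adjusted 0.0100). Fos stood below Junb by 1.17 ± 0.61 in WT and by 1.23 ± 0.50 in R6/1, a shift of -0.06 that did not pass (exact permutation p 0.822, adjusted 0.840). Within the EGR genes, Egr1 fell against Egr4 by 0.39 (exact permutation p 0.00309, adjusted 0.00817), and Egr2 fell against Egr4 by 1.06 (exact permutation p 0.000576, adjusted 0.00185). Arc and Npas4, the largest decreases on the log2(RPKM + 0.5) scale, were not separable from each other (by the ratio of means Egr2 was lowest, at 0.267, against 0.342 for Arc and 0.362 for Npas4): the shift between them was -0.22 (exact permutation p 0.295, adjusted 0.368). Leaving out each library in turn gave between 25 and 32 changed pairs.

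**Figure D4:**
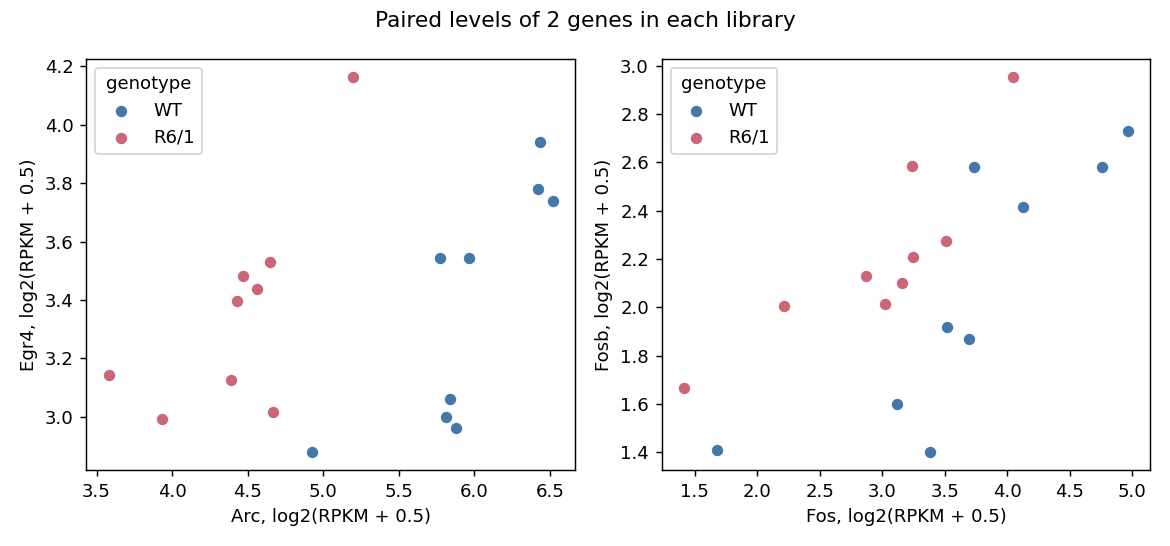
Level of Egr4 against Arc (left) and of Fosb against Fos (right), as log2(RPKM + 0.5), in each of 9 WT (blue) and 9 R6/1 (red) libraries. Pearson's r is above 0 within each genotype in both panels. For Egr4 and Arc in R6/1 it did not pass (r 0.72, exact permutation p 0.0392, adjusted 0.0579). The R6/1 points lie to the left of the WT points at a like level of Egr4, by about the shift of 1.50.

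Genes with a like pattern between animals were sought among 11661 other genes whose mean reached 2 RPKM, by Pearson's r over 18 libraries between a gene's deviations from its genotype means and the mean scaled deviation of the 10 genes; this is a description with no test. The highest were Dusp1, a phosphatase that inactivates MAP kinases (r 0.86), the antiproliferative gene Btg2 (0.85), Midn (0.84), Ier2 (0.79), Phlda1 (0.78), the kinase gene Sik1 (0.76), Cyr61 (0.75), Gstt1 (0.74), Acsf2 (0.73) and Aif1 (0.72), which is also a marker on the microglia list. The 95th percentile of r over all genes searched was 0.40. Their differences between genotypes were not alike. Btg2 fell from 9.70 ± 4.06 to 5.62 ± 1.16 RPKM (SD, n = 9 each; log2 fold change -0.67, limma adjusted p 0.00426) and Ier2 from 4.90 ± 1.85 to 2.72 ± 0.711 RPKM (-0.71, limma adjusted p 0.00230). Midn was at 14.1 ± 1.24 and 14.0 ± 1.38 RPKM (a log2 change of 0.00, limma adjusted p 0.955), so it followed the 10 genes between animals without a called difference between genotypes.

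A wider list of rapid response genes, without the 10, held 34 genes, of which 33 were tested and Atf3 was not. Of these, 19 fell and 5 rose, with a median log2 fold change of -0.31, against 23.5% and 24.8% of all tested genes. Ptgs2, the inducible cyclooxygenase of neurons, fell most, from 8.51 ± 2.47 to 2.01 ± 0.533 RPKM (SD, n = 9 each; log2 fold change -1.83, limma adjusted p 3.06e-09), with no overlap. Jun, the main partner of Fos, fell from 34.95 ± 6.21 to 20.2 ± 2.67 RPKM (a log2 change of -0.76, limma adjusted p 2.73e-06), also with no overlap. Klf10, a zinc finger gene, fell from 7.98 ± 0.873 to 4.59 ± 1.00 RPKM (log2 fold change -0.76), with no overlap. The small Maf factor gene Maff rose, from 0.412 ± 0.180 to 1.40 ± 0.791 RPKM (a log2 change of 0.96, limma adjusted p 0.000958), with overlap. Its WT mean was below the filter of 0.5 RPKM, which Maff passed through its R6/1 level. The values of Maff rest on 7 to 30 reads per WT library and 11 to 106 per R6/1 library. Over the alternatives other than leaving out a library, its change ran from 0.70 to 1.57.

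For Ptgs2 and Jun, r with the mean deviation of the 10 genes was 0.06 and 0.08 over 18 libraries. Both fell with little relation to the 10 genes over all libraries, though the relation had opposite signs in the genotypes. In WT alone r was -0.29 and -0.27, and in R6/1 alone 0.60 and 0.69, a difference that was not tested. The other lower genes of the list whose mean reached 2 RPKM varied widely over 18 libraries. Their r ran from -0.27 for Plk2 to 0.86 for Dusp1, with Klf10 at 0.41 and Dusp6 at 0.66. The relatives of the 10 genes also divided; they were picked for their families after their values were seen. Fosl2 fell from 11.3 to 7.47 RPKM (a log2 change of -0.57, limma adjusted p 0.000234) and Nr4a3 from 24.7 to 15.7 RPKM (-0.62, limma adjusted p 0.000312). Nr4a2 was at 19.4 and 19.6 RPKM (a log2 change of 0.03, limma adjusted p 0.861), and Jund at 35.1 and 35.9 RPKM (0.03, limma adjusted p 0.797).

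Of 26 delayed activity-regulated genes, 25 were tested (Baz1a was not), and 15 fell and 3 rose, with a median log2 fold change of -0.55, against 23.5% lower and 24.8% higher over all tested genes. All R6/1 libraries lay below all WT libraries for 12 of the 25, and above for 2, against 6.38% and 5.5% of all tested genes. Stac, which was called lower, passed the filter of 0.5 RPKM through its WT level (mean 1.33 RPKM, against 0.428 RPKM in R6/1). The 4 largest changes, picked for their size, were decreases without overlap. Penk, the enkephalin precursor, fell from 16.3 ± 3.09 to 5.19 ± 0.832 RPKM (SD, n = 9 each; log2 fold change -1.56, limma adjusted p 4.10e-10). Nptx2, which clusters AMPA receptors, fell from 10.0 ± 1.25 to 3.83 ± 0.905 RPKM (-1.30), Sst, the somatostatin precursor and also a marker on the inhibitory neuron list, from 195 ± 25.3 to 86.7 ± 14.1 RPKM (-1.17), and Rasgrp1, an activator of Ras, from 158 ± 14.5 to 72.9 ± 9.02 RPKM (-1.12).

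Upstream of the immediate early genes, the called kinase, phosphatase and glutamate receptor genes were mostly lower. Of 18 transcription factors and coactivators, 5 fell and 5 rose, shares near the 23.5% lower and 24.8% higher over all tested genes. Srf, which encodes the factor of the CArG box, fell from 15.4 ± 1.01 to 10.6 ± 0.904 RPKM (SD, n = 9 each; log2 fold change -0.52, limma adjusted p 7.01e-08), with no overlap, and Crtc1, a coactivator of CREB, fell by 0.32. The acetyltransferase genes Crebbp and Ep300 rose by 0.45 and 0.32, with overlap. Of 21 kinase and phosphatase genes, 13 fell and 3 rose, against the same 23.5% and 24.8%. Camk2a, the main calcium-dependent kinase of excitatory synapses, fell from 1057 ± 71.8 to 467 ± 32.1 RPKM (a log2 change of -1.18, limma adjusted p 2.76e-13), with no overlap. Camkk2 and Camkk1, kinases that activate other calcium-dependent kinases, fell by 0.86 and 0.69, and Ppp3ca, a catalytic subunit of calcineurin, by 0.81, each with no overlap. Of 10 glutamate receptor and calcium channel genes, 8 fell and 0 rose, again against 23.5% and 24.8%, led by Grin2a (-0.80), Gria1 (-0.72), Gria3 (-0.61) and Grin2b (-0.49), of which only Grin2b overlapped between genotypes.

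Of 10 partner and corepressor genes, 8 were tested (Fosl1 and Batf were not), and 1 fell and 1 rose, no larger a share than the 23.5% lower and 24.8% higher over all tested genes. Nab2, a corepressor of EGR proteins, fell from 13.8 ± 1.38 to 10.7 ± 0.856 RPKM (SD, n = 9 each; log2 fold change -0.35, limma adjusted p 6.17e-05). Rxra, a partner of Nr4a1, rose from 7.89 ± 0.741 to 11.2 ± 0.743 RPKM (a log2 change of 0.48, limma adjusted p 3.25e-07), with no overlap. The counts for this short list varied with single libraries: 3 fell without WT replicate 3, 2 fell without WT replicate 5 or 6 or R6/1 replicate 1, 5 or 7, and 2 rose without R6/1 replicate 8.

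**Figure D5:**
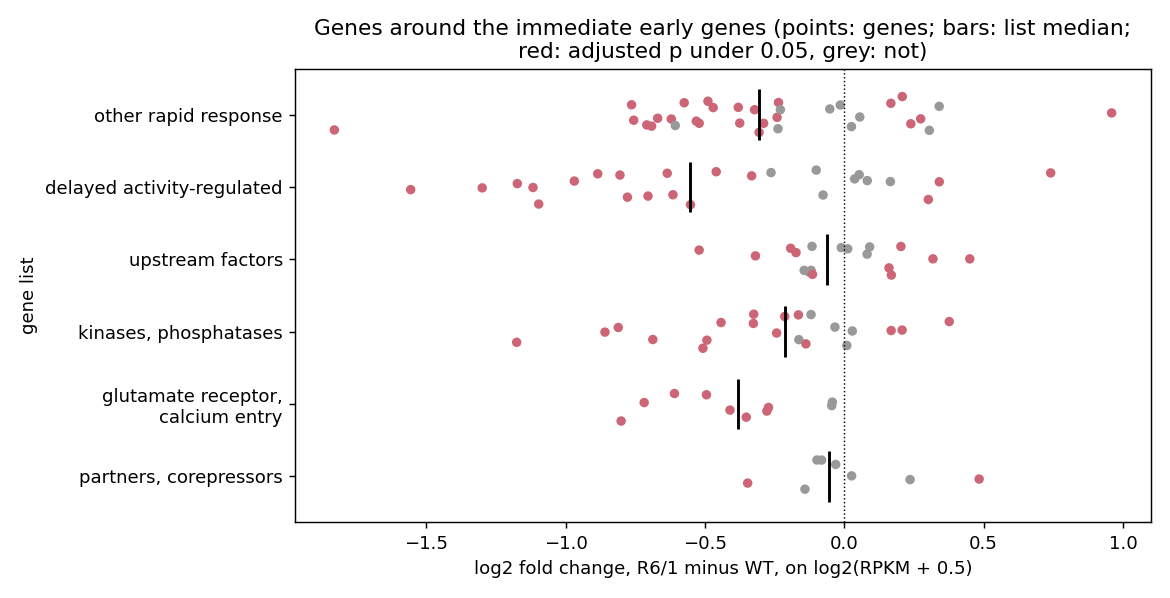
Log2 fold change, R6/1 minus WT, of every tested gene on 6 lists around the immediate early genes, red where the limma adjusted p is under 0.05, with the list median as a bar. The medians run from -0.55 for the delayed genes to -0.06 for the upstream factors and the partners.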

How the data were processed

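RNA-seq of hippocampus from 9 WT and 9 R6/1 mice was analysed; the ATAC-seq samples and the ChIP-seq reads were not used here. A stranded mRNA library kit was used, per the labels' protocols. TopHat, DESeq2 and build mm9 are named in the submitters' processing notes, without role or version; the counter and annotation are not given in the sources used here. The authors deposited RPKM per gene symbol and, in a second table, a mean normalised signal, a log2 fold change, a test score and a p-value before and after adjustment, the latter missing for 6113 genes. Each lamin B1 domain has a score, which the authors deposited and which was not used. Deposited RPKM times the ratio of mean signal to mean RPKM were whole multiples of 1 read per library, within 0.05 of a read, for 99.87% to 99.91% of values above 0, which gave the reads and shows scaling by size factors.

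Genes whose mean reached 0.5 RPKM were tested with limma 3.58.1 (R 4.3.3; lmFit and eBayes with trend) on log2(RPKM + 0.5), two-sided, with Benjamini-Hochberg adjustment over all tested genes and a threshold of 0.05; the fit was tested on simulated data. Fold changes are on that scale, which understates changes of low genes. From each list the 4 called genes of largest absolute change were named. The members and lists were chosen with earlier results of these data known. Replicate numbers were not taken to pair the libraries. The correlation of deviations of same-numbered libraries was between -0.05 and 0.24, above 0.1 for 3 of 9 numbers. Such correlations cannot exclude shared handling of same-numbered libraries, so a fit with the replicate number as a block is among the alternatives. Alternatives were other pseudocounts, filters, scalings, models and covariates, the authors' calls, and leaving out each library. Python 3.11.15 with scipy 1.17.1 was used for permutation tests. Intervals of reads cover counting error only. The number of columns of per-sample values left unused was 0.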

Additional observations from a re-analysis of the deposited data

Results flagged for a closer look

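For 64 sets of 9 libraries, the gap from the highest or lowest library to its neighbour was set against the whole range (Dixon's ratio); 1 set passed the critical value, where chance gives about 3.2. It was Egr4 in R6/1: replicate 1 stood at 17.4 RPKM, on 601 reads, and the next library at 11.04 RPKM. Leaving it out, the difference of Egr4 was -0.12 (limma adjusted p 0.534), against -0.02 (limma adjusted p 0.937) with it. The same library was the highest R6/1 library for 9 of the 10 genes.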

How the results depend on the processing

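The count of called members stayed between 6 and 8 lower and at 0 higher in all 32 alternatives, and the calls of Arc, Npas4, Egr2, Egr3, Junb and Nr4a1 held in each that tested them (Egr2 falls below a filter of 2 RPKM). Egr1 lost its call in 16 of 32. With the replicate block, limma adjusted p was 3.73e-05 for Arc, 0.0440 for Egr1 and 0.0796 for Fos, and no member's call changed. With own totals of reads, 3 upstream factors were lower (5 before) and 2 partners higher (1 before); the latter was 2 with quantile normalization too, while 2 partners were lower with a minimum of 2 RPKM or library weights; the cause was not tested. Leaving out a library gave 1 to 3 partners lower and 1 to 2 higher, and 16 to 34 related pairs in WT and 8 to 28 in R6/1. The low reads of Egr2 limit its precision.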
